A study of Homo sapiens with 16 samples.

Results

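De novo purine and pyrimidine synthesis was followed through 10 genes, PPAT, GART, PFAS, PAICS, ADSL, ATIC, IMPDH2, GMPS, CAD and UMPS, of the 34618 gene IDs counted. They were taken by symbol, from a list drawn up with earlier results of these data known, and all 10 passed the filter on low counts in every comparison. The libraries came from 2 human acute myeloid leukaemia lines, U937, a promonocytic line, and KG1A, an immature line that carries CD34. There were 4 groups of 4 libraries: U937 with NEL, U937 with DMSO, KG1A with NEL and KG1A with DMSO. NEL was given at 10 µM, DMSO was its vehicle, and the labels give no treatment time. All 4 groups grew in RPMI medium with dialyzed serum, from which most small molecules, free nucleosides included, have been removed. The labels do not spell out what compound NEL is, and it is called by that name here. Each line stands for a single leukaemia, and nothing in the labels says that the libraries of a group were separate cultures. The p-values therefore measure only how far these libraries spread, which may be technical.

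Cells make nucleotides either from small precursors, the de novo route, or by recycling bases and nucleosides, the salvage route. In the purine branch the ring is assembled on a ribose phosphate, with glutamine, glycine, aspartate and folate-borne formyl groups as donors, until inosine monophosphate (IMP) is complete, which is then turned into AMP or GMP. In the pyrimidine branch the ring is closed first and then joined to ribose phosphate to give UMP. Dividing leukaemia cells rely on both branches, and inhibitors of IMPDH or of the pyrimidine enzyme DHODH push some myeloid leukaemia lines towards maturation.

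Total counts ran from 11157449 to 11403031 per library in U937 with NEL, 11524192 to 11777684 in U937 with DMSO, 10641567 to 11046699 in KG1A with NEL and 10900129 to 11049006 in KG1A with DMSO. The lowest count of any of the 10 genes in a library was 201, for UMPS, and the highest was 6140, for PAICS. The line labels matched their markers: CD34 had 0 to 14 counts in U937 libraries and 9135 to 11444 in KG1A libraries, and the granule protease gene PRTN3 had 4377 to 11681 in U937 and 0 to 4 in KG1A. Of the 5 T lymphoid markers checked, CD3D and CD3E were clearly counted in KG1A, where the list summed to 142 to 156 CPM (counts scaled to a common library size) with NEL and 134 to 156 CPM with DMSO. Of the 5 B lymphoid markers, CD22 and CD79A were among those counted in U937, with MS4A1 at 0 or 1 count, and the list summed to 40.4 to 46.6 CPM with NEL and 12.8 to 16.6 CPM with DMSO. The part of these markers in the results below was not tested. HBA1, HBA2 and HBB were at 0 in every library.

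In U937, every one of the 10 genes fell with NEL, by 1.15-fold to 2.74-fold. The steepest falls were in PFAS, in the middle of the purine branch (2.74-fold), UMPS, the end of the pyrimidine branch (2.40-fold), and ADSL, which acts late in the purine branch and again in AMP synthesis (1.93-fold). GMPS and CAD fell least. In every gene the 4 NEL libraries lay below the 4 DMSO libraries, and how many of all genes were so separated was not counted. Taken as a sum, the 10 genes held 0.137 ± 0.00099% of all counts in U937 with NEL and 0.185 ± 0.0035% in U937 with DMSO (SD, n = 4 each). With edgeR's quasi-likelihood test and Benjamini-Hochberg adjustment over all 14390 genes tested, at an adjusted p under 0.05, 10 of 10 were called lower and 0 higher, where 34.7% of all genes tested were called lower and 34.6% higher. Their median log2 fold change was -0.58, from -1.46 to -0.20, and the median of all genes was -0.0044. At 2-fold or more, PFAS and UMPS were called lower, where 3.54% of all genes were, and 0 of the 10 higher, where 8.70% were. In a bulk sample, less RNA per cell and fewer cells of one kind cannot be told apart.

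**Figure D1:**
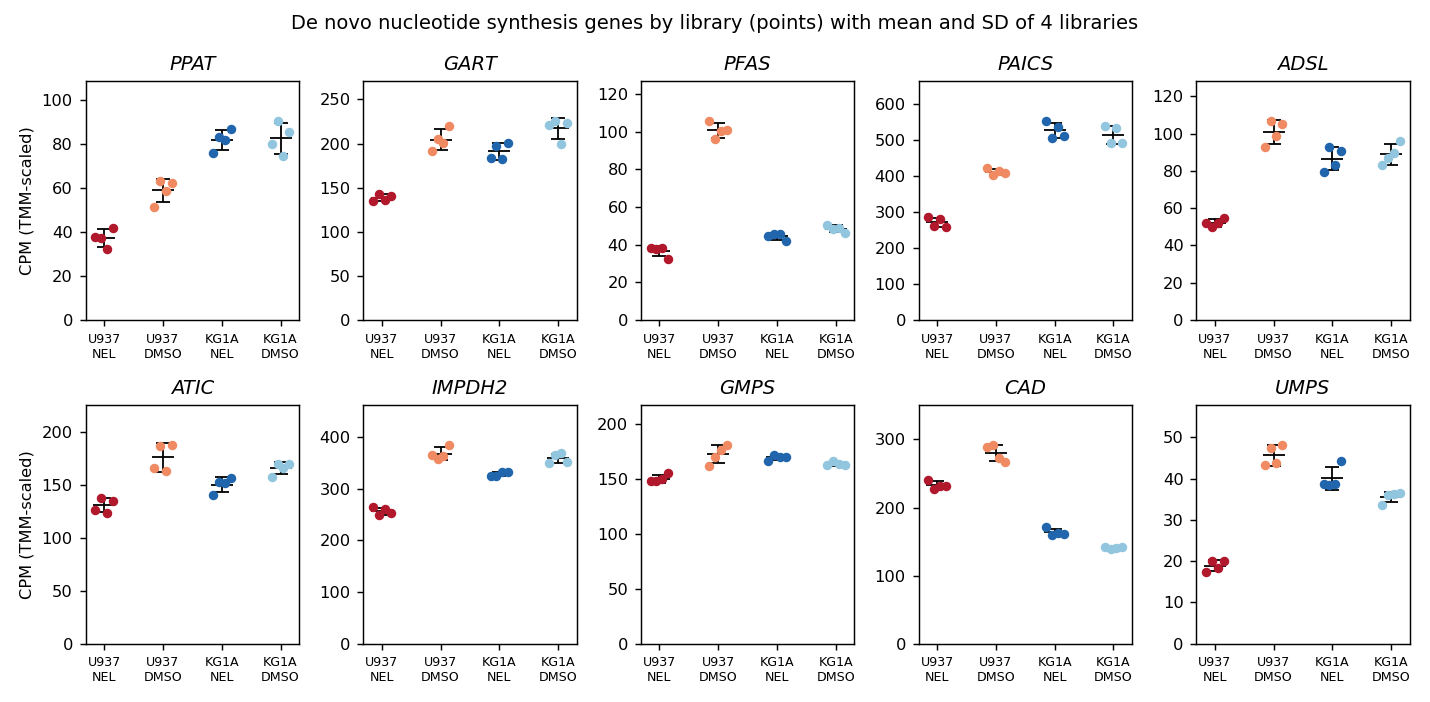
Normalised counts (CPM, vertical axes from 0) of each gene in every library, with NEL left of DMSO for U937 and then for KG1A; points are libraries, black marks the mean and SD of 4. In U937 the NEL points lie below the DMSO points in all 10 panels, and in KG1A the groups lie close together.

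The first committed step of the purine branch is made by PPAT (ENSG00000128059, GRCh37 chr4:57259528-57301781, minus strand), which moves an amide nitrogen from glutamine to phosphoribosyl pyrophosphate (PRPP). In U937, PPAT had 37.8, 37.3, 32.2 and 42.0 CPM with NEL, against 51.6, 63.5, 58.65 and 62.3 CPM with DMSO. The groups were apart, and the log2 fold change was -0.66 ± 0.08 (SE, n = 4 each, edgeR adjusted p = 6.15e-06). PAICS (ENSG00000128050, chr4:57301907-57327534, plus strand), a bifunctional enzyme that adds a carboxyl group and then aspartate to the growing ring, starts 126 bases from PPAT in the deposited gene models and runs the other way. It had 286, 262, 279.9 and 259 CPM with NEL, against 424, 404, 414 and 408 CPM with DMSO, a log2 fold change of -0.60 ± 0.04 (edgeR adjusted p = 2.26e-08). The falls of these divergent neighbours differed by less than 1 SE of PPAT's. Per exon length, PAICS stood at 9.30 ± 1.33 times PPAT in U937 with NEL and 8.90 ± 1.05 times with DMSO (ratio of RPKM, SD, n = 4 each), ranges that overlapped (two-sided exact permutation test, p = 0.686). In KG1A the ratio was 8.15 ± 0.77 with NEL and 7.91 ± 1.01 with DMSO (the same exact test, p = 0.686). These ratios, and the other 4 given below, were chosen after the values had been seen; 6 were computed, and the smallest p that 4 against 4 libraries can give is 0.0286.

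Both PPAT and PAICS fell in U937, as all 10 genes did. The stretch between their start sites is shown because both genes read out of it, in opposite directions. It is 136 bases long at chr4:56435616-56435751 on the plus strand of GRCh38 (RefSeq, GRCh38.p14, where the start sites are 137 bases apart), with PPAT to its left and PAICS to its right, and capitals mark the GC box GGGCGG, which Sp1-type factors bind. Beneath it stand 30 bases at chr4:56435772-56435801, just inside PAICS, with the E-box CACGTG, the site of MYC and related factors, in capitals.
PPAT and PAICS, between the start sites: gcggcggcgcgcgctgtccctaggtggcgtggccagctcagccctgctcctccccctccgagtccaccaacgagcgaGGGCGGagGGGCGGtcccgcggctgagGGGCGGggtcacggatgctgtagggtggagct
PAICS E-box with flanks: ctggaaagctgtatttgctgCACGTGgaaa
The E-box counted for PPAT, 182 bases before its start, and that of PAICS, 41 bases after its start, are the same site.

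GART and PFAS carry the ring through the next steps. GART (ENSG00000159131, chr21:34876238-34915797, minus strand), a trifunctional enzyme that takes a formyl group from folate, had 135, 143, 135.5 and 140.3 CPM in U937 with NEL, against 191, 205, 201 and 220.2 CPM with DMSO. Its groups were well apart, at a log2 fold change of -0.56 ± 0.05 (edgeR adjusted p = 1.32e-07). PFAS (ENSG00000178921, chr17:8150936-8173809, plus strand), the glutamine-using synthase between the steps of GART, had 38.4, 37.5, 38.1 and 32.6 CPM with NEL, against 106, 96.0, 100.3 and 101 CPM with DMSO. The highest NEL library of PFAS was far under the lowest DMSO library, and its log2 fold change of -1.46 ± 0.06 was the largest of the 10 (edgeR adjusted p = 7.45e-11). The gene models of GART and SON share 874 bases on opposite strands, and those of PFAS and CTC1 share 427. PPAT and IMPDH2 share 560 and 93 bases with opposite-strand genes known only by ID. Mean counts in U937 with NEL and DMSO were 3310 and 5131 for SON and 174 and 291.5 for CTC1. For the neighbours of PPAT and IMPDH2 they were 31.75 and 44.25, and 399 and 589. The part of these neighbours in the falls was not tested. Since no source used here states how strand was handled in counting, reads from these overlaps cannot be assigned with certainty.

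ADSL and ATIC complete IMP. ADSL (ENSG00000239900, chr22:40742507-40786467, plus strand) releases fumarate from the intermediate that PAICS makes, and does so again on the way from IMP to AMP. In U937 it had 51.8, 49.8, 52.0 and 54.7 CPM with NEL, against 92.7, 107, 98.7 and 105 CPM with DMSO, with no overlap and a log2 fold change of -0.95 ± 0.05 (edgeR adjusted p = 2.72e-09). Its gene model shares 19873 bases with SGSM3 on the same strand, so reads there are uncertain too. SGSM3 averaged 509 counts in U937 with NEL and 445 with DMSO. ATIC (ENSG00000138363, chr2:216176540-216214487, plus strand), which adds the last formyl group and closes the ring, had 127, 137.5, 124 and 135 CPM with NEL, against 166, 187, 163 and 188 CPM with DMSO. ATIC fell by 0.43 ± 0.06 on the log2 scale (edgeR adjusted p = 1.32e-05).

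From IMP, IMPDH2 and GMPS lead to GMP. IMPDH2 (ENSG00000178035, chr3:49061758-49066841, minus strand), the rate-limiting dehydrogenase and the isoform most used in dividing cells, had 264, 249.7, 259.7 and 252 CPM in U937 with NEL, against 365, 357, 364 and 385 CPM with DMSO. Every NEL library of IMPDH2 was below every DMSO library, at a log2 fold change of -0.52 ± 0.04 (edgeR adjusted p = 4.63e-08). GMPS (ENSG00000163655, chr3:155588325-155661815, plus strand), which aminates the product to GMP, had 148, 148, 149.5 and 155 CPM with NEL, against 162, 170.2, 176 and 181 CPM with DMSO. This was the smallest fall of the 10, at -0.20 ± 0.04 (edgeR adjusted p = 9.84e-04), and the groups did not overlap.

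In the pyrimidine branch the 2 genes fell by unequal amounts. CAD (ENSG00000084774, chr2:27440258-27466811, plus strand) encodes the trifunctional enzyme of its opening steps, carbamoyl phosphate synthetase included. CAD had 241, 228, 232 and 232 CPM in U937 with NEL, against 288, 292.5, 273 and 267 CPM with DMSO (log2 fold change -0.26 ± 0.04, edgeR adjusted p = 7.18e-05). UMPS (ENSG00000114491, chr3:124449213-124464040, plus strand), which joins the finished ring to ribose phosphate and decarboxylates it to UMP, had 17.4, 19.99, 18.3 and 20.1 CPM with NEL, against 43.2, 47.45, 43.65 and 48.2 CPM with DMSO. Its log2 fold change was -1.26 ± 0.07 (edgeR adjusted p = 1.55e-09). Per exon length, UMPS stood at 0.196 ± 0.018 times CAD in U937 with NEL and 0.393 ± 0.031 times with DMSO (SD, n = 4 each). The ratio was lower in all 4 NEL libraries than in any DMSO library, a log2 difference of -1.004 with the smallest p an exact permutation test can give here (two-sided, p = 0.0286; 0.171 after Benjamini-Hochberg adjustment over the 6 ratios). In KG1A the ratio was 0.590 ± 0.050 with NEL and 0.607 ± 0.023 with DMSO, ranges that overlapped (exact permutation p = 0.629).

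The 5 U937 line markers also differed between the U937 groups, and their sum was 825 to 873 CPM with NEL and 1441 to 1607 CPM with DMSO. The granule protease genes were lower with NEL, PRTN3 at 385 to 421 CPM against 917 to 1014 CPM with DMSO, and ELANE at 213 to 226 CPM against 363 to 438 CPM with DMSO. CSF1R, the receptor of a macrophage growth factor, stood at 19.0 to 20.4 CPM with NEL and 2.29 to 3.12 CPM with DMSO, LYZ, lysozyme, at 94.9 to 107 CPM with NEL and 64.2 to 74.1 CPM with DMSO, and CD33 at 104.5 to 115 CPM with NEL and 83.5 to 88.9 CPM with DMSO. None of the 5 overlapped between the groups, and how many of all genes were so separated was not counted. The part of these markers in the falls of the 10 genes was not tested.

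In U937 the NEL libraries also had a lower share of mitochondrially encoded counts, 6.53 ± 0.68% against 8.05 ± 1.04% with DMSO (SD, n = 4 each), and the part of this in the falls was not tested. The labels name no batch, but libraries numbered 2 and 4 differed from those numbered 1 and 3 in the same way in all 4 groups for 9 of the 10 genes. PPAT, GART, ADSL, ATIC, GMPS and UMPS were higher in the even-numbered libraries, PFAS, PAICS and CAD were lower there, and IMPDH2 was higher in 2 groups and lower in 2. Within the odd-numbered and the even-numbered libraries alone, the U937 log2 fold change was -1.43 and -1.48 for PFAS, -1.29 and -1.25 for UMPS, -0.88 and -1.01 for ADSL, -0.66 and -0.66 for PPAT, and -0.57 and -0.63 for PAICS. For GART it was -0.53 and -0.58, for IMPDH2 -0.48 and -0.56, for ATIC -0.39 and -0.45, for CAD -0.25 and -0.27, and for GMPS -0.19 and -0.21. All 10 were called lower in either set alone.

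In KG1A the same genes moved little and in both directions. CAD and UMPS, the pyrimidine pair, rose by 1.15-fold and 1.12-fold, while GART, ATIC, IMPDH2 and PFAS of the purine branch fell by 1.097-fold to 1.14-fold, and PPAT, PAICS, GMPS and ADSL did not pass the test. Of the 10, 2 were called higher and 4 lower, where 23.6% of the 14250 genes tested were called higher and 23.6% lower. Their median log2 fold change was -0.03, against -0.0045 for all genes. With limma on log2(RPKM + 0.5) instead of the count test, 4106 genes were called higher and 2263 lower in KG1A, against 3367 and 3362. No member reached a 2-fold change in KG1A, where 2.79% of all genes did so upwards and 0.625% downwards. The 10 genes summed to 0.183 ± 0.0023% of the counts in KG1A with NEL and 0.178 ± 0.0012% with DMSO (SD, n = 4 each), beside mitochondrially encoded shares of 8.54 ± 1.14% and 9.12 ± 0.92%, whose part was not tested.

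CAD gave the firmest rise. In KG1A, CAD had 171, 159, 162 and 161 CPM with NEL, against 142, 139.6, 141 and 142 CPM with DMSO, with no overlap. Its log2 fold change was 0.21 ± 0.04 (edgeR adjusted p = 3.42e-04), with 0.23 among odd-numbered and 0.18 among even-numbered libraries, and it was called under every alternative tried except the 2-fold threshold. UMPS had 38.7, 38.4, 38.7 and 44.3 CPM with NEL, against 33.6, 35.9, 36.1 and 36.4 CPM with DMSO. Library 4 with NEL was the highest, and the log2 fold change of 0.16 ± 0.06 just passed (edgeR adjusted p = 0.0361). Without that library the adjusted p was 0.123 in edgeR. It was 0.105, 0.0587 and 0.0571 without DMSO library 1, 2 or 3, 0.0782 in DESeq2, 0.0641 in edgeR with no filter on low counts, and 0.116 in the odd-numbered libraries alone.

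GART had 184, 197, 182 and 201 CPM in KG1A with NEL, against 221, 226, 199 and 223 CPM with DMSO. The ranges met, since DMSO library 3 lay below the highest NEL library, and the log2 fold change was -0.19 ± 0.05 (edgeR adjusted p = 0.00369). ATIC had 140.1, 152.5, 152 and 156 CPM with NEL, against 158, 169.8, 165.5 and 169.5 CPM with DMSO (-0.15 ± 0.04, edgeR adjusted p = 0.0101). Its groups were apart by a narrow margin. IMPDH2 had 324, 325, 332 and 332 CPM with NEL, against 350.3, 364, 368 and 351 CPM with DMSO (-0.13 ± 0.03, edgeR adjusted p = 0.00503), with a clear gap between the groups. PFAS, the gene that fell most in U937, had 44.8, 45.65, 45.4 and 41.7 CPM in KG1A with NEL, against 50.6, 48.5, 48.9 and 46.1 CPM with DMSO. Its log2 fold change of -0.13 ± 0.05 passed in edgeR (adjusted p = 0.0433) but not in DESeq2 (adjusted p = 0.111), in the odd-numbered or the even-numbered libraries alone (edgeR adjusted p = 0.0800 and 0.161), with no filter on low counts or in a single edgeR model of all 16 libraries (edgeR adjusted p = 0.0673 and 0.0674). It was also lost without NEL library 1, 3 or 4 or DMSO library 1, 2 or 3, at edgeR adjusted p from 0.0599 to 0.128. By set, the log2 fold changes were -0.20 and -0.18 for GART, -0.15 and -0.14 for ATIC, -0.13 and -0.13 for IMPDH2, and -0.14 and -0.12 for PFAS. None of these 4 falls was called with limma on log2 RPKM.

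The remaining genes overlapped between the KG1A groups. PPAT ran from 76.2 to 86.9 CPM with NEL and 74.5 to 90.7 CPM with DMSO (log2 fold change -0.02 ± 0.06, edgeR adjusted p = 0.818). PAICS ran from 507 to 553.5 CPM with NEL and 492 to 538 CPM with DMSO (0.03 ± 0.04, edgeR adjusted p = 0.584). For ADSL the ranges were 79.6 to 92.9 CPM with NEL and 82.95 to 96.1 CPM with DMSO (-0.04 ± 0.06, edgeR adjusted p = 0.556). GMPS lay between 166 and 171 CPM with NEL and 162 and 166 CPM with DMSO (0.04 ± 0.03, edgeR adjusted p = 0.303).

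**Figure D2:**
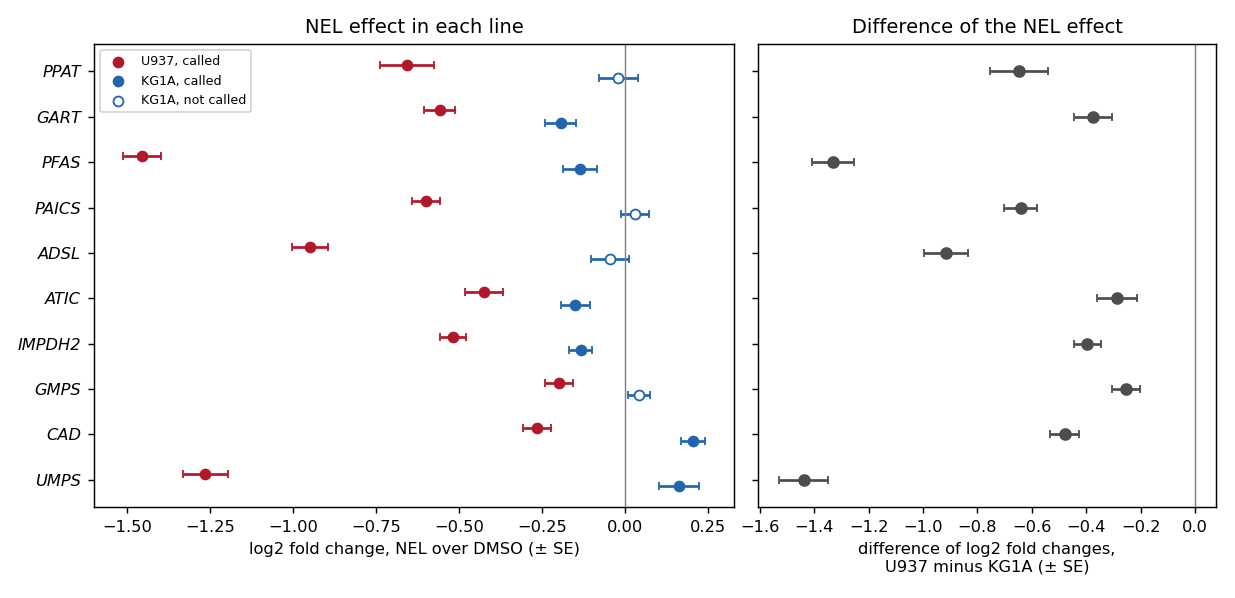
Left, log2 fold change of NEL over DMSO for each gene (± SE) in U937 (red) and KG1A (blue), with filled points for an edgeR adjusted p under 0.05; right, the difference of the effects, U937 minus KG1A (± SE). In U937 all 10 points lie below 0, from -1.46 to -0.20, in KG1A they lie between -0.19 and 0.21, and all 10 differences lie below 0.

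Whether NEL acted differently on the lines was tested as the interaction over all 16 libraries. The effect was lower in U937 than in KG1A for all 10 genes, in the test of the difference itself. Of all 16117 genes tested, 26.3% were called lower and 21.1% higher in U937 by this test, and with DESeq2 the share of calls that were higher was 54.6%, against 44.5% in edgeR. The difference was largest for the last pyrimidine enzyme UMPS, at -1.44 ± 0.09 (SE, edgeR adjusted p = 2.76e-11), and for PFAS, at -1.33 ± 0.08 (edgeR adjusted p = 6.80e-12). ADSL followed at -0.92 ± 0.08 (edgeR adjusted p = 7.32e-09), PPAT at -0.65 ± 0.11 (edgeR adjusted p = 3.01e-05) and PAICS at -0.64 ± 0.06 (edgeR adjusted p = 1.53e-08). CAD, which rose in KG1A and fell in U937, differed by -0.48 ± 0.05 (edgeR adjusted p = 1.43e-07). IMPDH2 (-0.40 ± 0.05), GART (-0.37 ± 0.07), ATIC (-0.29 ± 0.07) and GMPS (-0.25 ± 0.05) differed least, at edgeR adjusted p from 7.27e-07 to 0.00252. The median difference of the 10 was -0.56, beside -0.03 for all genes, and 2 of them, UMPS and PFAS, differed by at least 2-fold, where 4.73% of all genes did so in that direction and 5.74% in the other. The calls use the same libraries as the comparisons within the lines and add no independent samples.

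Without NEL, U937 already differed from KG1A in 6 of the 10 genes. PFAS was 1.96-fold, CAD 1.88-fold and UMPS 1.21-fold higher in U937, and PPAT 1.49-fold, PAICS 1.32-fold and GART 1.13-fold lower. In this comparison 43.0% of the 15181 genes tested were called higher and 43.4% lower, so 3 of 10 in either direction is below the share of all genes. In this comparison's own fit no member differed by 2-fold, where 20.6% of all genes did upwards and 23.3% downwards. PFAS averaged 101 ± 4.0 CPM in U937 with DMSO and 48.5 ± 1.9 CPM in KG1A with DMSO (SD, n = 4 each; log2 fold change 0.97 ± 0.05, edgeR adjusted p = 7.79e-12). The PFAS difference lay close to 2-fold and passed it with limma on log2(RPKM + 0.1) and in a single edgeR model of all 16 libraries, at log2 1.02 and 1.05. CAD averaged 280.3 ± 12.1 CPM in U937 and 141 ± 0.97 CPM in KG1A (0.91 ± 0.04, edgeR adjusted p = 2.51e-12), and UMPS 45.6 ± 2.6 CPM in U937 and 35.5 ± 1.3 CPM in KG1A (0.28 ± 0.06, edgeR adjusted p = 3.31e-04). None of these 3 genes overlapped between the lines, which was not counted over all genes. PPAT averaged 59.0 ± 5.4 CPM in U937 and 82.7 ± 6.9 CPM in KG1A (-0.57 ± 0.07, edgeR adjusted p = 8.46e-07), and PAICS 412.5 ± 8.6 CPM in U937 and 514 ± 25 CPM in KG1A (-0.40 ± 0.04, edgeR adjusted p = 1.72e-07). GART, at 204 ± 12 CPM in U937 and 217 ± 12 CPM in KG1A, overlapped (-0.17 ± 0.05, edgeR adjusted p = 0.00473), and its call was lost with limma on log2 RPKM (adjusted p = 0.0746) and in a single edgeR model of all 16 libraries (adjusted p = 0.0906).

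The other 4 genes stood close in the untreated lines. ATIC (0.00 ± 0.05), GMPS (-0.01 ± 0.04) and IMPDH2 (-0.05 ± 0.04) had log2 differences near 0, and ADSL was at 0.10 ± 0.06, with edgeR adjusted p from 0.113 to 0.968 for the 4. ADSL was called once the replicate number entered as a block (0.10, edgeR adjusted p = 0.0112), and without U937 library 1 or without KG1A library 4 (edgeR adjusted p = 0.0310 and 0.0403).

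With NEL, 9 of the 10 genes were lower in U937 than in KG1A and CAD alone was higher. None of the 10 overlapped between the lines, and how many of all genes were so separated was not counted. Here 42.9% of the 15602 genes tested were called lower and 42.3% higher. At 2-fold or more, PPAT and UMPS were lower, where 20.8% of all genes were and 21.8% were higher. PPAT stood at -1.14 ± 0.07, UMPS at -1.08 ± 0.07 and PAICS at -0.96 ± 0.04 on the log2 scale (SE, edgeR adjusted p = 5.59e-10, 1.46e-09 and 2.01e-11). ADSL was at -0.74 ± 0.06, GART at -0.47 ± 0.04, IMPDH2 at -0.36 ± 0.04, PFAS at -0.28 ± 0.06, ATIC at -0.21 ± 0.05 and GMPS at -0.18 ± 0.04, with edgeR adjusted p from 7.13e-09 to 9.75e-04. CAD was 1.42-fold higher, at 233 ± 5.5 CPM in U937 with NEL and 163 ± 5.3 CPM in KG1A with NEL (0.51 ± 0.04, edgeR adjusted p = 8.80e-09). PFAS and UMPS, higher in U937 than in KG1A with DMSO, were thus lower in U937 with NEL.

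Levels between genes were compared per exon length, as the RPKM values (counts scaled by exon length and library total) that the authors deposited. IMPDH2 and PAICS led in every group. In U937 with NEL, IMPDH2 stood at 95.2 ± 2.0 RPKM and PAICS at 65.0 ± 2.8 RPKM, followed by ATIC at 34.4 ± 1.9, CAD at 28.5 ± 0.56, GART at 18.3 ± 0.57 and GMPS at 17.4 ± 0.49 RPKM (SD, n = 4). ADSL at 8.91 ± 0.38, PPAT at 7.07 ± 0.78, PFAS at 5.83 ± 0.41 and UMPS at 5.58 ± 0.42 RPKM closed the order, in which only the neighbours GART and GMPS, and PFAS and UMPS, had libraries that overlapped. In U937 with DMSO the order of the upper 7 was the same, from IMPDH2 at 128 ± 3.7 RPKM to ADSL at 16.2 ± 1.0 RPKM. There PFAS at 15.03 ± 0.61 RPKM overlapped ADSL, and UMPS at 12.6 ± 0.72 and PPAT at 10.5 ± 0.94 RPKM came last without overlap.

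In KG1A with NEL, PAICS at 125 ± 4.2 RPKM and IMPDH2 at 121 ± 2.4 RPKM overlapped, as did CAD (19.9 ± 0.50) with GMPS (19.5 ± 0.43) and PPAT (15.45 ± 0.96) with ADSL (14.7 ± 1.2 RPKM). ATIC stood at 39.2 ± 2.1, GART at 25.1 ± 1.4, UMPS at 11.7 ± 0.91 and PFAS at 7.02 ± 0.26 RPKM. With DMSO, IMPDH2 at 127 ± 3.6 RPKM was above PAICS at 117 ± 5.1 RPKM. CAD, PPAT and ADSL lay close, at 16.45 ± 0.18, 14.9 ± 1.3 and 14.5 ± 1.0 RPKM, each overlapping the next, and PFAS was lowest at 7.37 ± 0.22 RPKM.

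**Figure D3:**
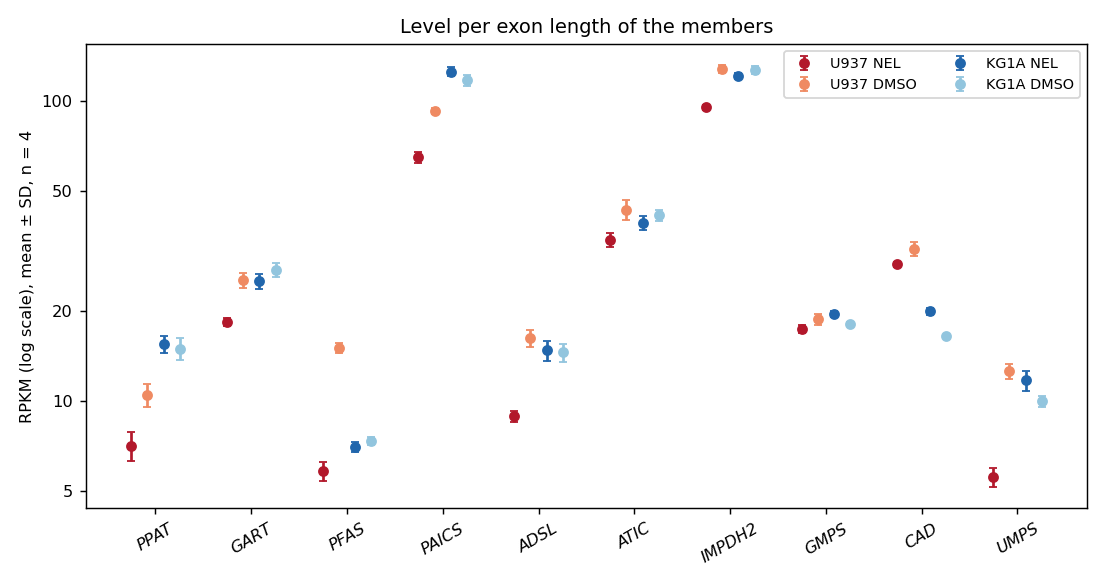
RPKM of each gene (vertical axis, log scale), mean ± SD of 4 libraries, with the groups U937 NEL, U937 DMSO, KG1A NEL and KG1A DMSO from left to right at each gene. IMPDH2 and PAICS are highest in every group, and PFAS and UMPS show the widest gap between NEL and DMSO in U937.

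The other enzymes of de novo synthesis moved both ways. Of 10 tested in U937, 4 fell and 4 rose (median log2 fold change -0.03), close to the shares of all genes, 34.7% lower and 34.6% higher. In KG1A 2 fell and 4 rose (median 0.09), beside 23.6% of all genes in each direction. DHODH, the mitochondrial enzyme between CAD and UMPS, fell in both lines. It had 10.3, 10.1, 9.48 and 10.2 CPM in U937 with NEL, against 19.6, 21.1, 17.2 and 20.6 CPM with DMSO (log2 fold change -0.97 ± 0.09, edgeR adjusted p = 2.47e-07). In KG1A, DHODH had 11.6, 11.9, 9.38 and 11.8 CPM with NEL, against 13.8, 17.04, 15.6 and 17.5 CPM with DMSO (-0.52 ± 0.10, edgeR adjusted p = 7.91e-04), and its effect was lower in U937 by 0.45 ± 0.13 (edgeR adjusted p = 0.00825; 0.0614 in the odd-numbered libraries alone). CTPS1, which makes CTP from UTP, went opposite ways in the lines, with no overlap in either. It had 81.1, 84.1, 81.2 and 85.45 CPM in U937 with NEL, against 147, 150.3, 141 and 149 CPM with DMSO (-0.82 ± 0.04, edgeR adjusted p = 8.47e-10). In KG1A, CTPS1 had 85.0, 87.1, 84.8 and 89.3 CPM with NEL, against 71.05, 72.05, 68.0 and 73.4 CPM with DMSO (0.28 ± 0.04, edgeR adjusted p = 8.97e-05), a difference between the lines of -1.11 ± 0.06 (edgeR adjusted p = 8.66e-13).

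PRPS1, which makes the PRPP that both branches use, fell in U937 (log2 fold change -0.26 ± 0.05, edgeR adjusted p = 1.83e-04) and rose in KG1A (0.18 ± 0.05, edgeR adjusted p = 0.0154), a difference of -0.45 ± 0.07 (edgeR adjusted p = 1.97e-05). Its paralog PRPS2 rose in both lines, by 0.24 ± 0.04 in U937 and 0.40 ± 0.04 in KG1A (edgeR adjusted p = 5.99e-05 and 2.43e-06). PRPSAP1 and PRPSAP2, partner proteins of the PRPP synthetases, rose in U937, by 0.72 ± 0.05 and 0.67 ± 0.07 (edgeR adjusted p = 1.04e-08 and 6.73e-07). ADSS2, which starts AMP synthesis from IMP, fell in KG1A by 0.15 ± 0.05 (edgeR adjusted p = 0.0207). That call was lost without NEL library 1 or 3 or DMSO library 2, at edgeR adjusted p from 0.0557 to 0.0675, and with limma. ADSS2 was lower with NEL in U937 too, at 69.1 ± 4.6 CPM against 95.3 ± 6.4 CPM with DMSO (SD, n = 4 each). CTPS2 was not called in either line (0.14 ± 0.07 in U937 and 0.07 ± 0.15 in KG1A, edgeR adjusted p = 0.0991 and 0.738), though without NEL library 1 it was called in U937 (edgeR adjusted p = 0.0233).

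IMPDH1, the second form of IMPDH, was not called in either line, at -0.20 ± 0.09 in U937 and -0.01 ± 0.09 in KG1A (edgeR adjusted p = 0.0601 and 0.930). With the replicate number as a block IMPDH1 was called lower in U937 (edgeR adjusted p = 1.51e-06), as it was without NEL library 1 or 3 or DMSO library 4 (edgeR adjusted p from 0.00550 to 0.0473). It stood 4.40-fold higher in U937 than in KG1A with NEL and 4.77-fold higher with DMSO (log2 2.14 ± 0.08 and 2.25 ± 0.10, edgeR adjusted p = 7.93e-13 and 7.18e-13). Per exon length, IMPDH2 was 2.84 ± 0.22 times IMPDH1 in U937 with NEL and 3.58 ± 0.59 times with DMSO (SD, n = 4 each, two-sided exact permutation p = 0.0571, 0.171 adjusted over the 6 ratios). In KG1A it was 16.03 ± 1.4 times IMPDH1 with NEL and 17.5 ± 2.1 times with DMSO (exact permutation p = 0.286). The isoform balance thus differed far more between the lines than with NEL.

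**Figure D4:**
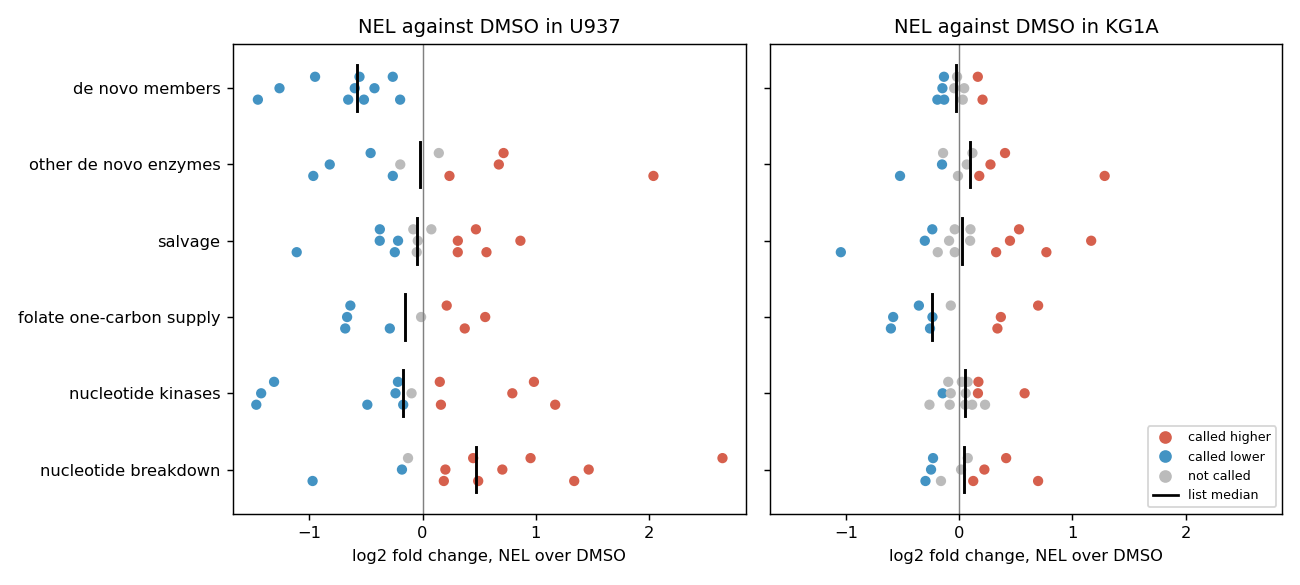
Log2 fold change of NEL over DMSO (horizontal axis) of every tested gene in 6 lists, in U937 (left) and KG1A (right), coloured by call, with the list median as a black bar. In U937 the 10 genes described here all lie below 0, with a median of -0.58, while the other lists spread to both sides.

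Salvage genes also went both ways. Of 14 tested in each line, 5 rose and 5 fell in U937 (median -0.05), close to the 34.6% and 34.7% of all genes called, and 5 rose and 3 fell in KG1A (median 0.03), beside 23.6% of all genes either way. APRT, which recycles adenine, fell in both, by 1.11 ± 0.07 in U937 and 1.05 ± 0.06 in KG1A on the log2 scale (edgeR adjusted p = 3.67e-09 and 1.16e-08). UPP1, a uridine phosphorylase, and DCK, the deoxycytidine kinase, rose in U937 by 0.86 ± 0.10 and 0.47 ± 0.05 (edgeR adjusted p = 3.85e-06 and 6.32e-07), and MTAP, which frees adenine from methylthioadenosine, fell by 0.38 ± 0.05 (edgeR adjusted p = 1.94e-05). In KG1A, TK1, the thymidine kinase of S phase, rose by 1.17 ± 0.05 and PNP, the purine nucleoside phosphorylase, by 0.45 ± 0.04 (edgeR adjusted p = 1.28e-09 and 3.98e-07), and UCK2, a uridine-cytidine kinase, fell by 0.24 ± 0.05 (edgeR adjusted p = 5.80e-04). Mean CPM with NEL and DMSO in U937 was 139.7 and 166.0 for UCK2, 75.2 and 60.7 for TK1, and 120.8 and 124.7 for PNP. In KG1A it was 4.14 and 2.415 for UPP1, 140.6 and 148.9 for DCK, and 86.1 and 80.15 for MTAP. UCK2, TK1 and UPP1 thus moved the same way in both lines.

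Among the folate enzymes that supply formyl groups, 3 rose and 4 fell of 8 tested in U937 (median -0.15), and 3 rose and 5 fell of 9 tested in KG1A (median -0.24). Of all genes, 34.6% were called higher and 34.7% lower in U937, and 23.6% each way in KG1A. MTHFD1L, which releases mitochondrial formate, fell by 0.64 ± 0.07 in U937 and 0.58 ± 0.06 in KG1A (edgeR adjusted p = 3.38e-06 and 3.39e-06). SHMT1, the cytosolic serine hydroxymethyltransferase, rose by 0.55 ± 0.05 in U937 and 0.37 ± 0.08 in KG1A (edgeR adjusted p = 4.15e-07 and 0.00156). FPGS, which traps folates in the cell, fell in U937 by 0.68 ± 0.05 (edgeR adjusted p = 7.02e-08), and MTHFD2 rose there by 0.37 ± 0.07 (edgeR adjusted p = 1.62e-04). ALDH1L2, a mitochondrial formyl-folate dehydrogenase, fell in KG1A by 0.60 ± 0.06 (edgeR adjusted p = 2.89e-06) and was too low to test in U937. Mean CPM with NEL and DMSO in KG1A was 47.6 and 56.6 for FPGS, and 289 and 303 for MTHFD2.

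Nucleotide kinases, which carry the monophosphates on to triphosphates, rose in 5 and fell in 7 of 13 tested in U937 (median -0.17), where 34.6% of all genes were called higher and 34.7% lower. In KG1A they rose in 3 and fell in 1 of 14 (median 0.06), where 23.6% of all genes were called each way. NME1 fell in U937 to 33.65, 35.6, 36.1 and 34.4 CPM with NEL, against 94.0, 95.9, 93.55 and 93.0 CPM with DMSO (-1.43 ± 0.04, edgeR adjusted p = 1.13e-11). It was the one kinase called lower in KG1A (-0.15 ± 0.06, edgeR adjusted p = 0.0457), a call lost in DESeq2 (adjusted p = 0.103) and without NEL library 3 or 4 or any 1 of the DMSO libraries (edgeR adjusted p from 0.0505 to 0.129). AK3 and AK4, mitochondrial adenylate kinase family members, rose in U937 by 0.79 ± 0.05 and 0.98 ± 0.08 (edgeR adjusted p = 1.13e-08 and 8.34e-08). NME4, the mitochondrial nucleoside diphosphate kinase, fell in U937 by 0.49 ± 0.08 and rose in KG1A by 0.58 ± 0.09 (edgeR adjusted p = 5.86e-05 and 9.28e-05).

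Genes of nucleotide breakdown were called higher in 9 and lower in 2 of 12 tested in U937 (median 0.47), where 34.6% of all genes were called higher and 34.7% lower. In KG1A they were called higher in 4 and lower in 3 of 10 tested (median 0.05), where 23.6% of all genes were called each way. UPB1, which ends pyrimidine breakdown, rose to 25.3, 22.2, 24.3 and 28.7 CPM in U937 with NEL, against 3.67, 3.90, 3.75 and 4.69 CPM with DMSO (2.65 ± 0.11, edgeR adjusted p = 1.75e-10). CDA, the cytidine deaminase, had 44.9, 47.0, 43.4 and 42.85 CPM with NEL, against 16.7, 16.02, 14.1 and 17.7 CPM with DMSO (1.47 ± 0.07, edgeR adjusted p = 6.00e-10). In both genes all 4 U937 NEL libraries lay above the DMSO libraries, and in KG1A both were too low to test. The nucleotidases NT5C (-0.97 ± 0.09) and NT5C3B (-0.18 ± 0.08) fell in U937 (edgeR adjusted p = 1.99e-07 and 0.0464). The call of NT5C3B was lost in DESeq2 (adjusted p = 0.108) and without NEL library 1, 2 or 3 or DMSO library 1 or 4 (edgeR adjusted p from 0.0514 to 0.122). In KG1A, NT5C3B rose by 0.41 ± 0.07 and SAMHD1, which degrades deoxynucleotides, by 0.70 ± 0.15 (edgeR adjusted p = 3.12e-04 and 0.00128), while AMPD2 and DPYD fell by 0.25 ± 0.04 and 0.23 ± 0.05 (edgeR adjusted p = 7.40e-05 and 0.00280). Mean CPM with NEL and DMSO in U937 was 14.4 and 10.3 for SAMHD1, 62.65 and 54.6 for AMPD2, and 28.9 and 14.9 for DPYD. For NT5C in KG1A it was 13.4 and 16.4. SAMHD1 was thus higher with NEL in both lines, and NT5C lower, while AMPD2 and DPYD went opposite ways.

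Of 7 transcription factors known to act on nucleotide synthesis genes, 6 were tested in each line, without MYCN in U937 and without MITF in KG1A. In each line 2 rose and 3 fell, beside 34.6% of all genes higher and 34.7% lower in U937 and 23.6% each way in KG1A. MYC, which drives many genes of both branches, had 81.1, 74.7, 80.8 and 77.7 CPM in U937 with NEL, against 442.5, 434, 450.3 and 439 CPM with DMSO (-2.49 ± 0.04, edgeR adjusted p = 6.21e-14). In KG1A it had 529, 526, 519.7 and 504 CPM with NEL, against 724, 721, 689 and 707 CPM with DMSO (-0.46 ± 0.04, edgeR adjusted p = 1.53e-07), and the fall was deeper in U937 by the test of the difference (-2.04 ± 0.05, edgeR adjusted p = 1.99e-17). E2F1 rose by 0.21 ± 0.05 in U937 and 0.70 ± 0.05 in KG1A (edgeR adjusted p = 0.00173 and 1.37e-07). NRF1 fell in U937 by 0.83 ± 0.08 and MITF rose there by 0.81 ± 0.11 (edgeR adjusted p = 6.57e-07 and 2.00e-05), and ATF4 fell in KG1A by 0.54 ± 0.05 (edgeR adjusted p = 1.59e-06). ATF4 was lower with NEL in U937 too, at 229 ± 16 CPM against 303 ± 20 CPM with DMSO (SD, n = 4 each). In KG1A, NRF1 was called lower too, averaging 16.3 ± 1.7 CPM with NEL and 21.5 ± 2.7 CPM with DMSO. Its ranges overlapped there, and MITF was at 0 CPM. Whether any of these factors plays a part in the members' values was not tested.

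Promoter windows of 300 bases, 250 before to 50 after each start site, were taken from RefSeq (GRCh38.p14) and were found for 8 of the 10 genes, in 12 windows. ADSL and IMPDH2 had no entry. The E-box CACGTG, searched on both strands as were all motifs, was in windows of 3 genes, PPAT, PAICS and ATIC, with 2 matches in ATIC. By window, it was in 3 of the 12, beside 7.26% of all 35116 RefSeq windows. The windows of GART, PFAS, GMPS, CAD and UMPS held none, and bases outside the windows were not searched. The GC box GGGCGG was in windows of 7 genes, all but UMPS, and in 8 of the 12 windows, beside 45.0% of all windows. CCAAT was in windows of GART and CAD, 4 of the 12, beside 34.6% of all windows. TGACGTCA, the cyclic AMP response element, was in 1 of the 12 windows, that of UMPS, beside 1.85% of all windows. The NRF1 site was in 1 of the 12, a window of PAICS, beside 5.78% of all windows. Within a window no match overlapped another. Windows 2 and 3 of GART overlap and share their CCAAT matches, and the GC boxes of PPAT and of the PAICS start 2 window are the same sites, so the matches are not separate counts. A match is a match of letters and not a measured binding site.

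The windows upstream of UMPS and PFAS are shown because these genes fell most in U937 and differed most between the lines. Each is the 250 bases before the start site on the plus strand of GRCh38, at chr3:124730202-124730451 for UMPS and chr17:8249039-8249288 for PFAS, with capitals for TGACGTCA in UMPS and GGGCGG in PFAS.
UMPS, before the start site: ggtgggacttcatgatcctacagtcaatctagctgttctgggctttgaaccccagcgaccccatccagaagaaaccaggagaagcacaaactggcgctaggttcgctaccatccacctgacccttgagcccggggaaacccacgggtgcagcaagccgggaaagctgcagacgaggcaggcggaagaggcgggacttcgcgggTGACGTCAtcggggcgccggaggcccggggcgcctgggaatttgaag
PFAS, before the start site: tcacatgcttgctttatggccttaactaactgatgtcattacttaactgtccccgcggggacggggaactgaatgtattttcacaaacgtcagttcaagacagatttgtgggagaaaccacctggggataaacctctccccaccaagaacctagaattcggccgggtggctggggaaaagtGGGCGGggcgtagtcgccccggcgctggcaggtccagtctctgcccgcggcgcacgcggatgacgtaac
Each window held a single match of its motif and no match of the other motifs searched.

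**Figure D5:**
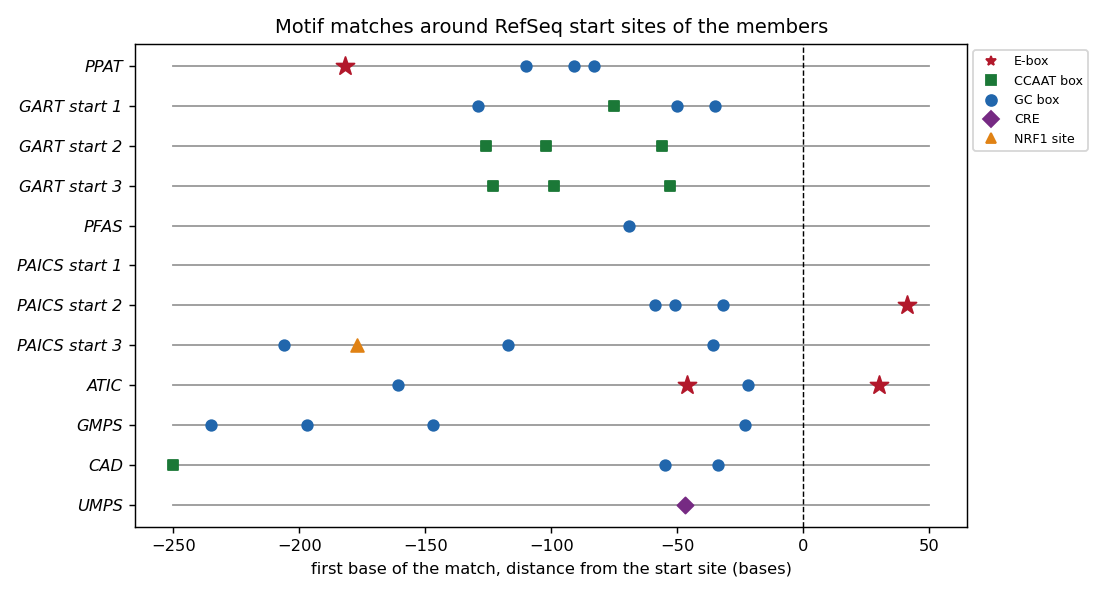
Positions of motif matches (first base, horizontal axis in bases from the RefSeq start site at 0) in the 12 promoter windows of 8 genes, each drawn as a grey line. The E-box of PPAT and that of PAICS start 2 are the same site seen from either side, and UMPS has a single match, the CRE at 47 bases before its start.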

How the data were processed

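The authors deposited raw read counts per gene and RPKM values of the same 16 libraries, which equal the counts divided by exon length and library total (to within 1.86e-07). Per the labels' protocols, stranded libraries were made from polyadenylated RNA. Per the submitters' processing notes, bcl2fastq 2.18.0.12, TopHat2 and HTSeq 0.11.2 were used on hg19 (GRCh37). Annotation and strand setting: not given in the sources used here. Gene IDs without a symbol (34618 less 32562) held 0.878% of the counts.

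Counts were tested with edgeR 4.0.16 (R 4.3.3, quasi-likelihood test, TMM factors, minimum count 10, minimum total 15), after tests on simulated data, with Benjamini-Hochberg adjustment over all genes tested and calls at an adjusted p under 0.05. Lines were fitted separately over 8 libraries, and the difference of effects over 16. Printed CPM share TMM factors of all 16 libraries, while fold changes come from each comparison's own fit. SEs are the size of the log2 fold change over the root of the F statistic. Alternatives were DESeq2 1.42.0, its size factors, no filter or 1 CPM in 4 libraries, limma 3.58.1 on log2(RPKM + 0.5) or log2(RPKM + 0.1), an adjusted p under 0.01, a 2-fold threshold, each library left out, the replicate number as a block, the odd-numbered and even-numbered sets, sums of libraries 1 and 2 and of 3 and 4, and a single model.

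The 10 members and the lists were chosen with earlier results of these data known. Named besides them are IMPDH1, DHODH, PRPS1, PRPS2, CTPS1, CTPS2, MYC and, of each list and line, up to 2 called genes of smallest p in each direction whose groups do not overlap. Some genes that the rule names are not reported here. ADSS and ADSSL1 were matched as ADSS2 and ADSS1.

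The labels number libraries 1 to 4 in every group. Deviations from the group means of same-numbered libraries correlated over 11843 genes in every pair (r from 0.277 to 0.368), which meets the bar set for pairing. Differently numbered libraries of the same odd or even set correlated as strongly (0.264 to 0.401) and those of opposite sets negatively (-0.396 to -0.263), so the data show an odd and an even set and no closer pairing by number. With the set difference removed, libraries 1 and 2, and 3 and 4, of a group were closest, so a group may hold only 2 separate samples. Plots used matplotlib 3.10.9 in Python 3.11.15.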

Additional observations from a re-analysis of the deposited data

Results flagged for a closer look

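In 3 of 40 groups of 4 libraries, a single library stood apart by Dixon's test, which chance gives in about 1 of 20 groups. GART in KG1A with DMSO had its lowest library, number 3, at 199 CPM, the one that overlaps the NEL libraries. PFAS in U937 with NEL had its lowest library, number 4, at 32.6 CPM, and UMPS in KG1A with NEL its highest, number 4, at 44.3 CPM. The UMPS call is lost without this library, and also without DMSO library 1, 2 or 3.

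The effect of NEL differed between the lines in the interaction test for all 10 genes, as U937 minus KG1A on the log2 scale. The values were -1.44 for UMPS, -1.33 for PFAS, -0.92 for ADSL, -0.65 for PPAT, -0.64 for PAICS, -0.48 for CAD, -0.40 for IMPDH2, -0.37 for GART, -0.29 for ATIC and -0.25 for GMPS. CAD, UMPS, PAICS and GMPS had positive log2 fold changes in KG1A and negative ones in U937, of which GMPS and PAICS did not pass in KG1A.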

How the results depend on the processing

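All 210 alternative values of the 10 genes in U937, all 280 of the difference between lines and all 210 of the lines with NEL kept their direction and their call. In KG1A 172 of 210 did, 29 lost a call (of UMPS, PFAS, GART, ATIC or IMPDH2), 2 gained one (GMPS, with limma) and 7 changed sign; between the untreated lines 180 of 210 did, 3 lost a call (GART), 9 gained one (ADSL) and 18 changed sign. The number called higher in KG1A, 2, became 1 with no filter, in DESeq2, in the odd-numbered libraries and at an adjusted p under 0.01, 3 with limma (GMPS added), and 1 to 2 with a library left out; the number called lower, 4, became 0 with limma on either RPKM scale, 2 at an adjusted p under 0.01, and 3, without PFAS, with no filter, in DESeq2, in either set alone, in the single model and in 6 of the 8 fits with a library left out. Under the 2-fold threshold, KG1A had 0 higher and 0 lower, U937 2 lower (PFAS and UMPS), the difference 2 lower, the lines with NEL 0 higher and 2 lower, and the lines with DMSO 0 and 0. Over all genes that threshold left 398 higher and 89 lower in KG1A (3367 and 3362 without it), 1252 and 510 in U937 (4985 and 4993), 925 and 763 for the difference (3404 and 4239), 3405 and 3242 with NEL (6596 and 6689) and 3123 and 3532 with DMSO (6528 and 6595). The replicate block changed no member's call but that of ADSL between the untreated lines (0.10). Among the other named genes it added calls of IMPDH1 in U937 and of DCK, MTAP, MTHFD2 and PRPSAP1 in KG1A, of which DCK and PRPSAP1 were not called on sums of libraries. Signs turned only where nothing was called, all near 0, and the cause was not tested. In KG1A, PPAT turned to 0.048 and 0.049 (limma), 0.028 (odd set) and ran from -0.068 to 0.027 with a library left out, ADSL turned to 0.0205 and 0.021 (limma), IMPDH1 to 0.0545 and 0.058 (limma) and 0.0400 (even set), with -0.072 to 0.039 with a library left out, and CTPS2 to -0.059 (odd set), with -0.032 to 0.20 with a library left out. PNP in U937 turned to 0.0476 and 0.0482 (limma). Between the untreated lines, ATIC turned to -0.0090 (DESeq2 size factors and test), -0.0066 (1 CPM filter), -0.053 (odd set) and ran from -0.029 to 0.047 with a library left out, IMPDH2 turned to 0.0120 and 0.0121 (limma) and 0.038 (single model), and GMPS to 0.00077 (no filter), 0.048 and 0.049 (limma), 0.0083 (even set), 0.0049 (sums) and 0.076 (single model), and ran from -0.021 to 0.021 with a library left out. Each of the 10 genes had at least 201 counts in every library; how far depth or the number of samples limits the calls was not tested.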
